A study of Mus musculus with 32 samples.

Results

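Genes of glucose uptake and breakdown, and genes that respond to low oxygen, were read out in 32 mesothelioma tumors. The list named 35 genes, and 31 of them had a row among the 39676 genes counted. Mif, Epas1, Ddit4 and Pgam1 had no row in the table used here and were not analysed here. The members were given by gene symbol, with no threshold on a measured value.

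Whole tumors were taken 10 days after inoculation of untreated female mice aged 8 to 10 weeks, and RNA of each was sequenced. AB1 cells (500000 per mouse) were given to BALB/c mice and AE17 cells (1000000 per mouse) to C57BL/6 mice, either into the pleural cavity (intrapleural, IPL) or under the skin of the right flank (subcutaneous, SC). Each of the 4 groups held 8 mice. Both AB1 and AE17 are single murine mesothelioma cell lines, so that cell line, mouse strain and number of cells differ together between the models. All tumors were whole tissue with the cells of the host, from which lung and surrounding tissue had been removed, and a fall in such RNA cannot tell fewer cells of a type from less RNA per cell.

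Libraries held between 15432258 and 20649645 counts, and the lowest count of any member in any library was 14. Of 6 mesothelial and mesothelioma markers with a row, Pdpn stood at a mean of 86.5 to 169 CPM (counts per 1000000 counts of a library, scaled by TMM) over the groups, while the means of Wt1, Upk3b, Lrrn4, Calb2 and Krt19 lay between 0.00727 and 5.54 CPM. In AB1 and AE17, Upk3b had means of 4.12 and 2.78 CPM in IPL against 0.00727 and 0.0146 CPM in SC tumors. Lrrn4 had 3.34 and 2.51 CPM against 0.0707 and 0.0679 CPM. Means of Wt1, Krt19 and Pdpn were also higher in IPL tumors of both models, and that of Calb2 in neither. In each model 2 of the 6 were tested for site, and none passed. AB1 IPL replicates 2 and 4 were least like their group (mean Pearson r of log2 CPM across genes with the other 7 mice 0.945 and 0.943, against 0.96 to 0.97 in the other 6). Sequencing lane ran with the groups: all 8 AB1 IPL libraries were on lane 3 with 2 AB1 SC libraries, the other 6 AB1 SC libraries on lane 2, and in AE17 all 8 SC and 3 IPL libraries were on lane 1 and 5 IPL libraries on lane 2. Each comparison of IPL with SC tumors was therefore also fitted with lane as a covariate and within 1 lane. Lane 2 held only SC libraries of AB1 and only IPL libraries of AE17. Both fits therefore take the site effect from the same mice and are not separate checks. These are 8 IPL and 2 SC mice of lane 3 in AB1, and 3 IPL and 8 SC mice of lane 1 in AE17.

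Glycolysis takes glucose in through facilitative transporters, traps it by phosphorylation with a hexokinase, commits it at phosphofructokinase and splits it to pyruvate, which is reduced to lactate and exported or passed to the mitochondria. Under low oxygen the alpha subunits of the hypoxia-inducible factor (HIF) escape the prolyl hydroxylases that mark them for destruction, pair with ARNT and bind hypoxia response elements. Many glycolysis genes are HIF targets, together with genes for mitophagy, pH control and collagen folding, and tumors often run glycolysis even where oxygen is present. HIF1A itself is controlled largely at the level of the protein, which was not measured here.

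The core of the hypoxia response element, read as ACGTG or GCGTG on either strand, was looked for in the RefSeq promoter windows of 250 bases before and 50 bases after each start (GRCm38.p6). Of the 31 members, 28 had a window, and 24 of those 28 (85.7%) held the core in at least 1 window. Among all 27025 genes with a window the share was 46.7%. Genes can have several windows, and counted by window the shares were 72.5% of 40 windows of members and 43.8% of 32851 windows of all genes. All genes were not matched to the members in level or base composition. A match describes letters in the window and is no evidence of binding. The 250 bases before the start are shown for Slc2a1, Hk2 and Slc16a3, whose response to site differed between the models, and for Bnip3 and Car9, which varied widely between mice of a group. The core is in capitals, read 5′ to 3′ on the gene's strand.
Slc2a1 (chr4:119108495-119108744, plus strand): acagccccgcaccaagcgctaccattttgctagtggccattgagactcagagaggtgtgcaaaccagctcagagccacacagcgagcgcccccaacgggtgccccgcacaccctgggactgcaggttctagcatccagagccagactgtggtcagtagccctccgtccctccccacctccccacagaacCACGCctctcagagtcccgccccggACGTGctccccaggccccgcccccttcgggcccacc
Hk2 (chr6:82774455-82774704, minus strand): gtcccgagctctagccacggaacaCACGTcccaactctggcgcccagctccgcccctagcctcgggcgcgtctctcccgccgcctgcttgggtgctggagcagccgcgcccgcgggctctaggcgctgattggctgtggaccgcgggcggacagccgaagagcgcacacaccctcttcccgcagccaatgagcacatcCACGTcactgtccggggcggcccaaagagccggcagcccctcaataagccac
Slc16a3 (chr11:120948817-120949066, plus strand): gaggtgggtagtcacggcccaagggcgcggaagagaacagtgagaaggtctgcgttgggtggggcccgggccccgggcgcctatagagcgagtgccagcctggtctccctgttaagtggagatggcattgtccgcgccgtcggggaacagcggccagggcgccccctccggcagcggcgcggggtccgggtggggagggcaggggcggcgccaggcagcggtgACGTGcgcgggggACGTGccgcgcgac
Bnip3 (chr7:138909507-138909756, minus strand): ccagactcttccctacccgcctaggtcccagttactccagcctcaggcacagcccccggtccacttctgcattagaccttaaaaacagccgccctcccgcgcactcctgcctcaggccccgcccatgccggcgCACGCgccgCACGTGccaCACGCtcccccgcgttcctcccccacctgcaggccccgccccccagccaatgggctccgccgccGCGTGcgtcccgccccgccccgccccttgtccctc
Car9 (chr4:43506776-43507025, plus strand): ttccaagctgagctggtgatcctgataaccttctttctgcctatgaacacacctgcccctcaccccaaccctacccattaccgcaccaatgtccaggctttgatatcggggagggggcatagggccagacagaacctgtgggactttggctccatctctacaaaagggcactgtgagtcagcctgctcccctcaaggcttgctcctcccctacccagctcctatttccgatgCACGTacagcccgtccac
Car9 held the core once, 18 bases before its start, whereas Bnip3 held it at 5 positions, 2 of which overlap. Slc16a3 and Slc2a1 each held it at 2 positions before the start, as did Hk2. Slc2a3, Bnip3l and Ndrg1 had no window in that table.

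Per kilobase of exon, the abundant members were the enzymes of the lower part of the pathway. Mean levels over the 4 groups were 431.5 CPM per kb for Pkm (pyruvate kinase), 367 for Pgk1 (phosphoglycerate kinase), 359.9 for Aldoa (aldolase), 310.4 for Tpi1 (triosephosphate isomerase), 299.5 for Ldha (lactate dehydrogenase) and 237 for Eno1 (enolase), the same unit for all. The lowest were Adm (2.72 CPM per kb) and Slc2a3 (1.93 CPM per kb). Gapdh stood at 48.9 CPM per kb, and its level is uncertain, since 25.1% of the 50-base words of its transcripts also occur in transcripts of 223 other genes, 209 of them pseudogenes. The same holds for Pgk1 (53.9% of words shared), Bnip3 (47.2%), Eno1 (26%) and Pkm (25.8%).

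In the AB1 model, the glucose transporter genes Slc2a1 and Slc2a3, the hexokinase gene Hk2 but not Hk1, Pfkp and Pfkfb3 of the 4 members at the hexose phosphate steps, the lactate exporter gene Slc16a3, Hif1a and Kdm3a were lower in IPL than in SC tumors, and P4ha2 was higher. Of the 31 members, 9 passed the test (edgeR quasi-likelihood, Benjamini-Hochberg adjusted p under 0.05 over all genes), 8 lower and 1 higher in IPL tumors. Over all 14645 genes tested, 23% passed, 10.7% lower and 12.3% higher in IPL tumors. The median log2 fold change was -0.24 over the members and -0.0023 over all genes tested. In the AE17 model 2 members passed, Hk2 higher and Slc2a3 lower in IPL tumors, against 5.73% of 14668 genes, of which 2.6% were higher and 3.13% lower. That share rests on single mice: the 840 genes called became 316 without IPL replicate 4 and 2066 without SC replicate 1, and 12 of the 16 fits that left out 1 mouse moved the count by over 1.5 times (all but IPL replicates 1 and 6 and SC replicates 4 and 8). The members' median log2 fold change there was 0.11.

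**Figure D1:**
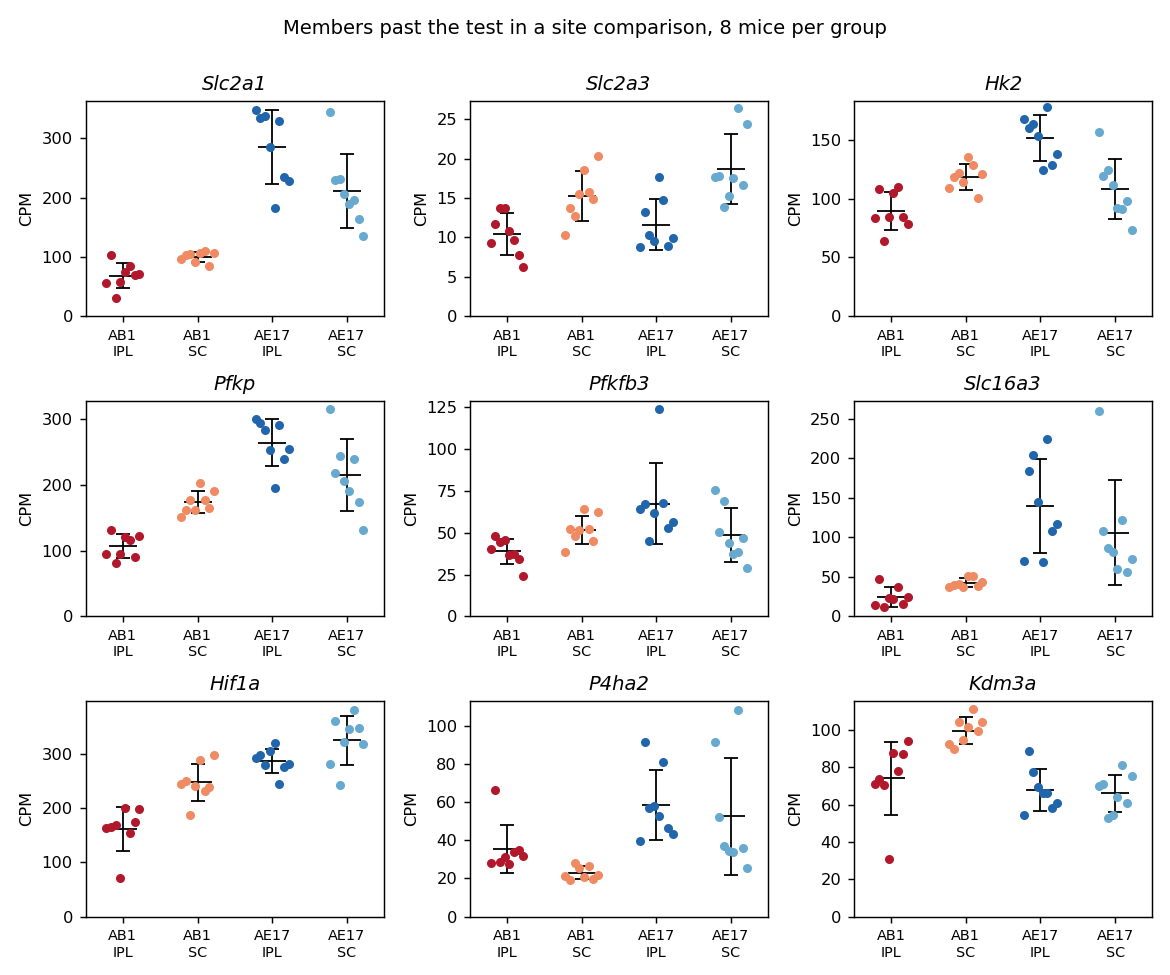
CPM in each of 8 mice per group (points) with the mean and SD (black) for the 9 members that passed the test in either site comparison. Pfkp shows no overlap between AB1 IPL and AB1 SC mice, and Slc2a1, Hk2, Pfkp, Pfkfb3 and Slc16a3 have a lower mean in AB1 IPL than in AB1 SC tumors and a higher mean in AE17 IPL than in AE17 SC tumors.

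Slc2a1 encodes GLUT1, the widespread glucose transporter. Its lowest, median and highest values were 30.6, 70.3 and 103 CPM in AB1 IPL tumors and 84.3, 104 and 109 CPM in AB1 SC tumors. Of the 8 AB1 IPL mice, 7 lay below the lowest AB1 SC mouse, and replicate 2 lay within the SC range. The log2 fold change was -0.59 ± 0.16 (SE, adjusted p = 0.0138, edgeR). In AE17 tumors it reached 182, 307 and 348 CPM in IPL and 135, 200.5 and 345 CPM in SC mice. Those groups overlapped (log2 fold change 0.43 ± 0.17, adjusted p = 0.13).

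Slc2a3, which encodes the high-affinity transporter GLUT3, was the member that passed in the same direction in both models. It stood at 6.29, 10.2 and 13.8 CPM in AB1 IPL against 10.3, 15.2 and 20.4 CPM in AB1 SC tumors (log2 fold change -0.59 ± 0.17, adjusted p = 0.0173). Values in AE17 were 8.72, 10.1 and 17.7 CPM in IPL and 13.8, 17.6 and 26.4 CPM in SC tumors (-0.67 ± 0.17, adjusted p = 0.0285). Both pairs of groups overlapped. The AE17 call was lost when any 1 of IPL replicates 1, 3, 4, 7 or 8 or SC replicates 5 or 6 was left out (adjusted p up to 0.0621, log2 fold change -0.79 to -0.59 over all 16 such fits).

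Hk2, the inducible hexokinase bound to mitochondria, passed in opposite directions. Its values were 64.1, 84.7 and 110.1 CPM in AB1 IPL against 100.2, 120 and 135 CPM in AB1 SC tumors (-0.43 ± 0.10, adjusted p = 0.00499). In AE17 they were 125, 157 and 178 CPM in IPL against 73.2, 105 and 156 CPM in SC tumors (0.49 ± 0.13, adjusted p = 0.0347). Of the AE17 SC mice, only replicate 1 lay within the IPL range. That AE17 call was lost without any 1 of IPL replicates 1, 2, 3, 4, 6, 7 or 8 or SC replicates 2, 5, 6 or 7 (adjusted p up to 0.0719, log2 fold change 0.42 to 0.58), and with no filter on low counts (adjusted p = 0.0559). Hk1, the constitutive hexokinase, did not pass, with a log2 fold change of -0.02 ± 0.08 for AB1 (adjusted p = 0.915) and 0.29 ± 0.10 for AE17 tumors (adjusted p = 0.0872).

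At the phosphofructokinase step, Pfkp (the platelet-type subunit) gave the clearest separation. It lay at 80.8, 106 and 131 CPM in AB1 IPL tumors and at 151, 171 and 203 CPM in AB1 SC tumors, so that no mouse of one group reached the other (-0.74 ± 0.10, adjusted p = 8.24e-05). In AE17 it lay at 195, 269 and 300.0 CPM in IPL and 131, 212 and 316 CPM in SC tumors (0.30 ± 0.14, adjusted p = 0.189). Pfkfb3, the kinase that makes the phosphofructokinase activator fructose-2,6-bisphosphate, fell by 0.44 ± 0.13 on the log2 scale in AB1 (24.4, 38.9 and 48.0 CPM in IPL against 38.7, 52.0 and 63.9 CPM in SC tumors, adjusted p = 0.0211), a call lost with all 32 mice in 1 fit (adjusted p = 0.082). Its AE17 values were 45.2, 62.8 and 124 CPM in IPL and 28.7, 45.2 and 75.8 CPM in SC tumors (0.47 ± 0.21, adjusted p = 0.18). Pfkl and Gpi1, the liver-type subunit and glucose-6-phosphate isomerase, did not pass in either model (log2 fold changes between -0.17 and 0.16).

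From aldolase to pyruvate kinase, none of the 6 members passed at either site comparison. Log2 fold changes of Aldoa, Tpi1, Gapdh, Pgk1, Eno1 and Pkm ran from -0.31 (Gapdh, adjusted p = 0.0628) to 0.12 (Aldoa, adjusted p = 0.306) in AB1 and from -0.29 (Eno1) to 0.15 (Aldoa) in AE17. In AB1 the median of the 6 was -0.21. Levels were wide apart among AB1 IPL mice, as for Eno1 with 703 CPM in replicate 3 and 1575 CPM in replicate 6, and narrow among AB1 SC mice (1275 to 1712 CPM). With limma-voom and sample quality weights, which give outlying libraries less weight, Tpi1, Gapdh, Pgk1, Eno1 and Pkm also passed as lower in AB1 IPL tumors, as did Ldha, Pdk1, Egln3 and Ndrg1, for 18 members in all. The same fit called 31.5% of all genes. In AE17 that method called 8 members and 27% of all genes, and for the difference of the site effects between the models 14 members and 29.4% of all genes.

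Of the 3 members for the fate of pyruvate, Slc16a3 (MCT4, the lactate exporter of glycolytic cells) had the largest log2 fold change in both models. It lay at 11.4, 22.4 and 47.2 CPM in AB1 IPL and at 37.1, 40.4 and 51.5 CPM in AB1 SC tumors (-0.83 ± 0.23, adjusted p = 0.0148). AB1 IPL replicates 2 and 6 were within the SC range and the other 6 below it. AE17 tumors had 69.0, 131 and 225 CPM in IPL and 56.4, 84.3 and 260.1 CPM in SC mice (0.41 ± 0.33, adjusted p = 0.456). Ldha was at 938 CPM (median) in AB1 IPL against 975 CPM in AB1 SC tumors and at 1008 against 988 CPM in AE17, and did not pass (-0.15 ± 0.13 and -0.03 ± 0.12). Pdk1, which keeps pyruvate out of the mitochondria by inhibiting pyruvate dehydrogenase, had -0.43 ± 0.17 in AB1 (adjusted p = 0.0748) and -0.22 ± 0.25 in AE17 (adjusted p = 0.618).

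Among the HIF members, Hif1a transcripts were at 71, 166 and 199.8 CPM in AB1 IPL and at 188, 243 and 298 CPM in AB1 SC tumors (-0.64 ± 0.16, adjusted p = 0.00721). Replicate 4 alone was at 71 CPM, and the other AB1 IPL mice lay between 155 and 199.8 CPM. Without replicates 2 and 4 the log2 fold change was -0.52 (adjusted p = 0.00078, chosen after seeing the data). In AE17 it had 244, 287 and 319 CPM in IPL and 242, 333 and 381 CPM in SC tumors (-0.17 ± 0.08, adjusted p = 0.198). Egln1 and Egln3, 2 prolyl hydroxylases that mark HIF for destruction, did not pass, Egln1 with 0.01 ± 0.12 and -0.08 ± 0.13 and Egln3 with -0.27 ± 0.22 and 0.45 ± 0.27 in AB1 and AE17.

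P4ha2, a subunit of the prolyl hydroxylase that matures collagen, was the member that rose in AB1 IPL tumors. It lay at 27.8, 31.7 and 66.1 CPM in IPL and at 19.4, 21.5 and 28.1 CPM in SC tumors (0.60 ± 0.16, adjusted p = 0.0121), the groups touching only at their edges. That call was lost with all 32 mice in 1 fit (0.61, adjusted p = 0.057). The fibroblast markers Col1a1, Col1a2, Col3a1, Pdgfra and Thy1 moved too, with 3 higher and 1 lower in AB1 IPL tumors and summed levels of 13017 to 34481 CPM against 10975 to 14276 CPM, and their part in this result was not tested. P4ha1 did not pass (-0.12 ± 0.12). In AE17, P4ha2 had 39.8, 54.9 and 91.2 CPM in IPL and 25.5, 36.7 and 108 CPM in SC tumors (0.17 ± 0.29).

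Kdm3a, a histone demethylase and HIF target, lay at 31.1, 75.8 and 93.9 CPM in AB1 IPL and at 89.7, 100.4 and 111 CPM in AB1 SC tumors (-0.46 ± 0.15, adjusted p = 0.0392). Replicate 4 was again the lowest by a wide gap. The call was lost in 10 of 16 fits that left out 1 mouse (AB1 IPL replicates 1, 2, 3 or 6 or any of AB1 SC replicates 3 to 8, adjusted p up to 0.0839) and with no filter on low counts (adjusted p = 0.0762), yet it held without IPL replicates 2 and 4 together (-0.33, adjusted p = 0.00229). The remaining hypoxia response genes Bnip3, Bnip3l, Car9, Car12, Ndrg1, Ankrd37, Adm and Vldlr did not pass in either model. Their log2 fold changes ran from -0.34 to 0.25 in AB1 and from -0.27 to 0.60 in AE17.

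**Figure D2:**
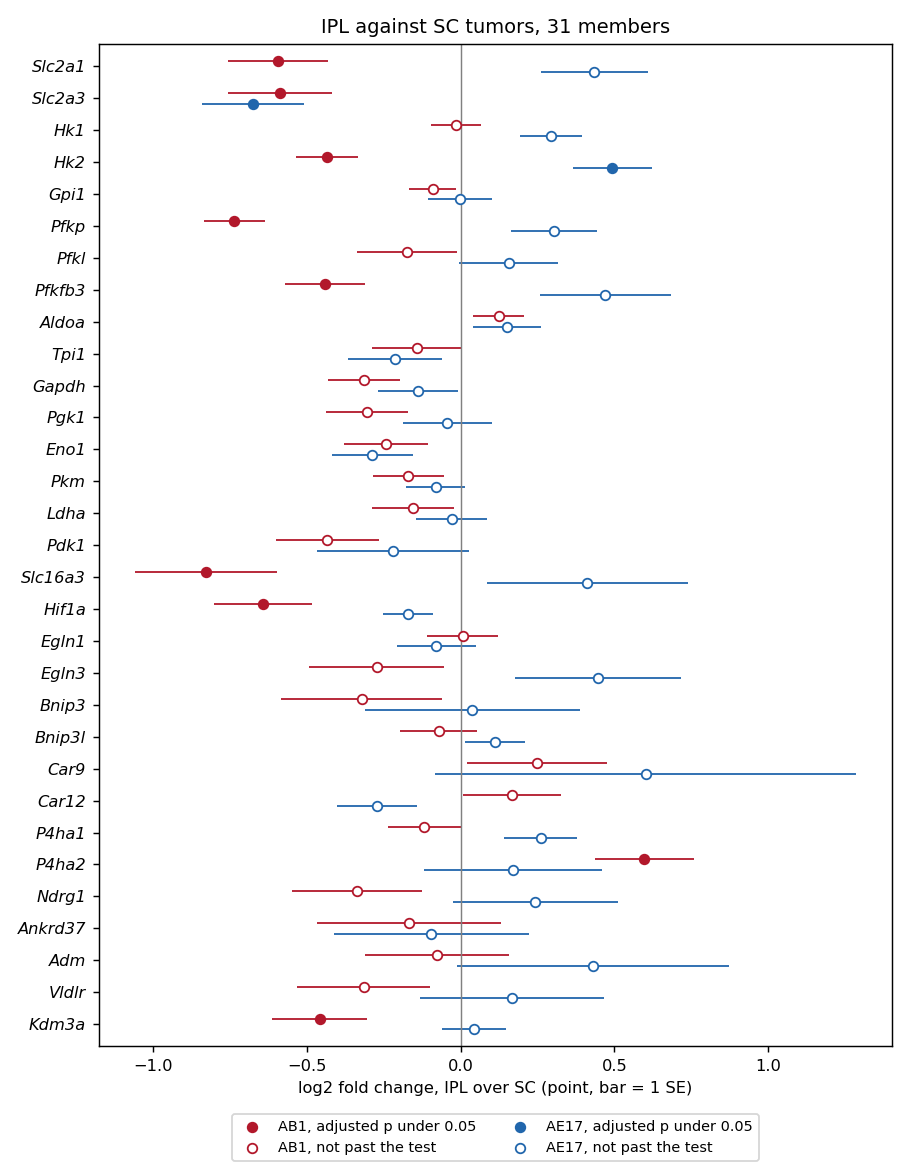
Log2 fold change of IPL over SC tumors for each of the 31 members in AB1 (red) and AE17 (blue), with 1 SE, filled where the adjusted p was under 0.05. Points for Slc2a1, Hk2, Pfkp, Pfkfb3 and Slc16a3 lie on opposite sides of 0 in the 2 models, and those from Aldoa to Ldha lie within -0.31 and 0.15.

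The difference of the site effects between the models was tested in 1 fit of all 32 mice. It passed for 5 members, all more positive in AE17 than in AB1: Slc16a3 (1.22 ± 0.42 on the log2 scale, adjusted p = 0.0359), Pfkp (1.02 ± 0.18, 0.000235), Slc2a1 (1.01 ± 0.25, 0.00462), Hk2 (0.91 ± 0.17, 0.000462) and Pfkfb3 (0.89 ± 0.26, 0.0137). These encode a glucose transporter, a hexokinase, a phosphofructokinase subunit, the kinase that makes its activator and a lactate exporter. The list's other glucose transporter Slc2a3 (-0.10, adjusted p = 0.804), hexokinase Hk1 (0.29, adjusted p = 0.119) and phosphofructokinase subunit Pfkl (0.31, adjusted p = 0.384) did not pass. Of the 31 members 16.1% passed, and over all 15681 genes tested 20.5% did, 8.62% more positive in AE17 and 11.9% more negative. For Hif1a and Kdm3a the difference was 0.45 ± 0.18 (adjusted p = 0.0815) and 0.48 ± 0.19 (adjusted p = 0.0751), and none of the 14 HIF and hypoxia response members passed. Slc16a3 lost the call in 13 of 32 fits that left out 1 mouse (AB1 IPL replicates 1, 3, 4 or 7, AB1 SC 5 or 6, AE17 IPL 2, 3 or 6, AE17 SC 4, 5, 7 or 8, adjusted p up to 0.0637, log2 difference 1.09 to 1.56) and with no filter on low counts (1.20, adjusted p = 0.0851). The other 4 kept it in all 32.

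Sequencing lane moved with these site results. With lane as a covariate, 1 member passed in AB1 (Pfkp, -0.57, adjusted p = 0.0476), where 2.64% of all genes did, and no member passed in AE17 (0.00682% of all genes) or for the difference (0.746% of all genes). The fitted values with lane, which take the site effect from the mice of lane 3 alone, kept their direction for all 9 AB1 members. They were -0.57 for Slc2a1, -0.23 for Slc2a3, -0.35 for Hk2, -0.24 for Pfkfb3, -0.68 for Slc16a3, -0.62 for Hif1a, -0.31 for Kdm3a and 0.79 for P4ha2, with adjusted p between 0.142 and 0.694. Within lane 3 (8 AB1 IPL and 2 AB1 SC mice) they were -0.62 for Slc2a1, -0.28 for Slc2a3, -0.40 for Hk2, -0.62 for Pfkp, -0.29 for Pfkfb3, -0.73 for Slc16a3, -0.66 for Hif1a, -0.35 for Kdm3a and 0.74 for P4ha2, with none passing (adjusted p between 0.159 and 0.736), where 1.06% of all genes did. In AE17 within lane 1 (3 IPL and 8 SC mice), Hk2 had 0.46 and Slc2a3 -0.74 (adjusted p = 0.32 and 0.228). The differences of the site effects with lane as a covariate were 0.88 for Slc2a1, 0.80 for Hk2, 0.85 for Pfkp, 0.51 for Pfkfb3 and 1.17 for Slc16a3 (adjusted p between 0.0908 and 0.539).

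Markers of other cell types also moved with site, in more lists in AB1 than in AE17. Of 11 skeletal muscle markers, 10 were higher in AB1 IPL tumors and none in AE17 IPL tumors, and their summed level ran from 116 to 4819 CPM in AB1 IPL against 54.2 to 540.1 CPM in AB1 SC mice (57.1 to 876 CPM in AE17 IPL, 45.4 to 1398 CPM in AE17 SC). The defining markers Ckm and Acta1 had means of 253 and 841 CPM in AB1 IPL tumors against 12.9 and 125 CPM in AB1 SC tumors. Erythroid markers ran from 36.9 to 2607 CPM against 15.6 to 46.4 CPM, with 3 of 3 tested higher, and T and NK cell markers from 17.8 to 65.1 CPM against 76.0 to 154 CPM, with 6 of 6 lower. Also higher in AB1 IPL tumors were 3 of 3 B and plasma cell markers (16.5 to 480.5 CPM against 11.4 to 28.2 CPM), 4 of 7 endothelial markers (129 to 224 CPM against 136 to 168 CPM) and 3 of 5 adipocyte markers (64.0 to 428 CPM against 43.2 to 87.6 CPM). Heart muscle markers had 2 higher and 1 lower of 3 tested (6.41 to 84.8 CPM against 6.12 to 14.5 CPM), neutrophil markers 2 higher and 1 lower of 5 (17.7 to 556 CPM against 45.6 to 89.7 CPM) and lung epithelium markers 1 lower of 2 (10.6 to 31.2 CPM against 18.5 to 30.7 CPM). In AE17 IPL tumors 2 of 2 B and plasma cell markers were higher (1.77 to 209 CPM against 0.881 to 3.63 CPM), 1 of 4 erythroid markers was higher (51.2 to 526.1 CPM against 21.8 to 164.5 CPM) and 2 of 6 T and NK cell markers were lower, their summed level running from 46.8 to 112 CPM against 14.7 to 119 CPM. With scores of skeletal muscle, heart muscle, adipocyte and lung epithelium markers as covariates, where 4.02% of all genes passed, Pfkp passed in AB1 (-0.45, adjusted p = 0.0485) and the other 8 did not, with -0.23 for Slc2a1, -0.17 for Slc16a3, -0.27 for Hk2 and -0.45 for Hif1a. In the same fit the difference of the site effects passed for Slc2a1 (0.83), Hk2 (0.74) and Pfkp (0.85), against 5.41% of all genes. The 7 markers of dividing cells had none past the test in either model.

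Of the other genes of these pathways, 40 were tested in the site comparisons. In AB1, 14 passed (23% of all genes did), 8 higher and 6 lower in IPL tumors, and the median log2 fold change of the 40 was 0.09. In AE17, 4 passed, 1 higher and 3 lower, against 5.73% of all genes. The difference of the site effects passed for 12, of which 4 were more positive in AE17, against 20.5% of all genes. Most of these calls were lost with lane as a covariate, which left Aldoc of the 14 in AB1, none of the 4 in AE17 and Bpgm of the 12 differences. Marker scores as covariates left Aldoc and Pdk4 in AB1, none in AE17 and 6 of the differences (Aldoc, Pdk4, Pgam2, Tigar, Bpgm and Pdk2). The largest rises in AB1 IPL tumors were in isoforms known from muscle and oxidative tissue. Pdk4, a pyruvate dehydrogenase kinase induced in fasting and by fatty acids, lay at 3.83, 38.2 and 161 CPM in IPL and between 0 and 2.51 CPM in SC mice (5.63 ± 0.82, adjusted p = 0.000186). Slc2a4, the insulin-responsive transporter GLUT4, lay at 0.898, 6.47 and 18.6 CPM against 0.182, 0.649 and 1.78 CPM (3.35 ± 0.61, adjusted p = 0.000892), the lowest being near the 0.145 to 0.194 CPM that 3 counts make. Pgam2, the muscle phosphoglycerate mutase, lay at 2.32, 18.1 and 46.0 CPM against 1.76, 3.44 and 5.23 CPM (2.68 ± 0.53, adjusted p = 0.00167).

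**Figure D3:**
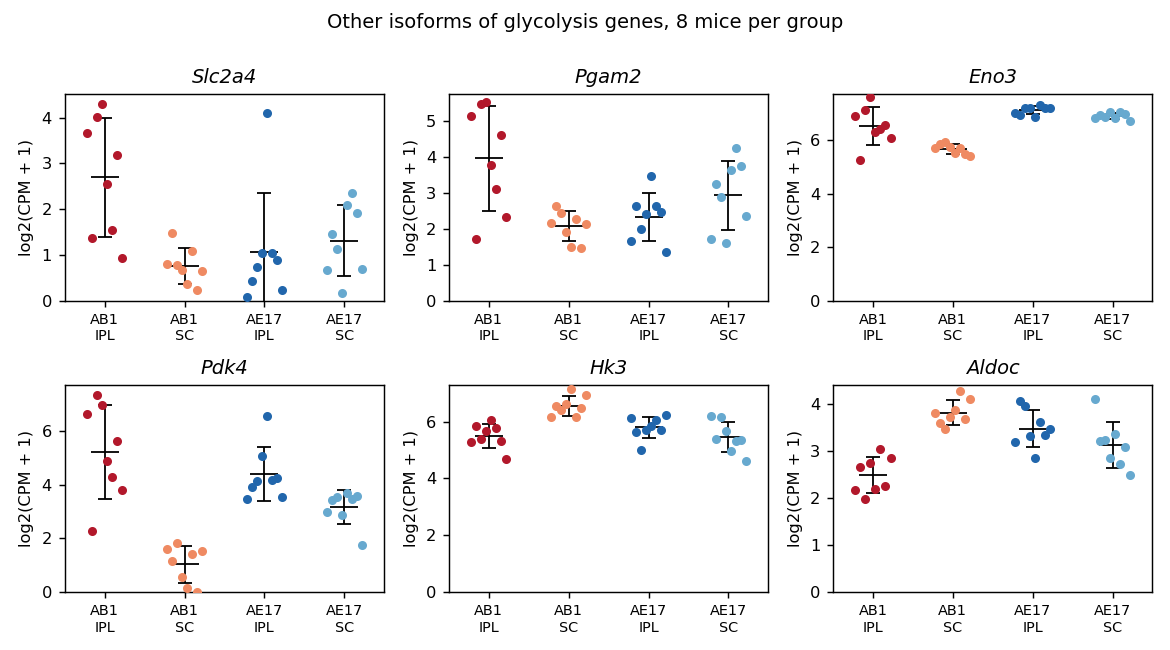
Log2(CPM + 1) in each of 8 mice per group (points), with mean and SD (black), for tissue isoforms of glycolysis genes and Pdk4. In AB1, Slc2a4, Pgam2, Eno3 and Pdk4 have higher means in IPL than in SC tumors, and every AB1 IPL mouse lies below every AB1 SC mouse for Hk3 and Aldoc.

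Eno3 (muscle enolase) rose by 0.99 ± 0.24 and Pdk2 by 1.65 ± 0.28 on the log2 scale in AB1 IPL tumors (adjusted p = 0.0057 and 0.000559). With lane as a covariate none of these 5 passed, with 5.27 for Pdk4 (adjusted p = 0.0831), 2.61 for Slc2a4, 2.32 for Pgam2, 0.90 for Eno3 and 1.48 for Pdk2 (adjusted p between 0.133 and 0.275). The scores of skeletal muscle, heart muscle, adipocyte and lung epithelium markers entered 1 fit together, so that the part of muscle alone was not tested. With the 4 marker scores as covariates the AB1 log2 fold changes were 0.20 for Slc2a4, -0.36 for Pgam2, -0.05 for Eno3 and 0.31 for Pdk2, none passing, while Pdk4 kept 2.15 (adjusted p = 0.0103). AB1 IPL replicate 3, with 4819 CPM of muscle markers, held the highest value of Pdk4, replicate 4, with 4762 CPM, held the highest of Pgam2, and replicate 2, with 116 CPM, held the lowest of both. Over all AE17 mice, Pgam2 was highest in SC replicate 6 (18.1 CPM), which had 1398 CPM of muscle markers. Slc2a4 and Pdk2 were highest in IPL replicate 5 (16.1 and 22.2 CPM), with 876 CPM of muscle markers, and Eno3 in IPL replicate 6 (160.3 CPM), with 656 CPM. In AE17 IPL tumors Pdk4 rose as well (9.94, 16.7 and 93.2 CPM against 2.31, 9.9 and 11.9 CPM, 1.63 ± 0.46, adjusted p = 0.048), a call lost in 12 of 16 fits that left out 1 mouse (all but IPL replicates 1 and 8 and SC replicates 1 and 3, adjusted p up to 0.0874). IPL replicate 5 held its highest value, and without it the AE17 log2 fold change was the lowest of the 16 at 0.97. The same mouse stood apart in its markers, with summed levels of 1176 CPM for adipocyte (53.2 to 106 CPM in the other AE17 IPL mice) and 239.5 CPM for heart muscle markers (10.6 to 58.0 CPM). Its B and plasma cell markers (209 CPM) were high together with those of replicate 8 (169 CPM), the other 6 mice lying between 1.77 and 5.82 CPM. Of 3 heart muscle markers tested, 2 were higher in AE17 IPL tumors. The AE17 Pdk4 call was lost with lane (0.81, adjusted p = 0.468) and with marker scores as covariates (0.94, adjusted p = 0.301).

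The isoforms lower in AB1 IPL tumors were Hk3, the hexokinase of myeloid cells (24.6, 45.0 and 65.6 CPM against 70.0, 90.4 and 142 CPM, -1.09 ± 0.19, adjusted p = 0.000507), and Aldoc, the aldolase known from brain (2.95, 4.56 and 7.18 CPM against 10.1, 12.5 and 18.4 CPM, -1.51 ± 0.18, adjusted p = 3.4e-05). Neither overlapped between the AB1 groups. Aldoc passed with lane as a covariate (-1.36, adjusted p = 0.0133), within lane 3 (-1.40, adjusted p = 0.0482) and with marker scores as covariates (-1.20, adjusted p = 0.0365). Both lane fits take the site effect from the same mice of lane 3. Hk3 did not with lane (-0.84, adjusted p = 0.121). Of 6 macrophage markers 3 were lower in AB1 IPL tumors, and their part in the Hk3 result was not tested. The difference of the site effects passed for both (1.38 ± 0.30 for Hk3 and 1.85 ± 0.31 for Aldoc), in the direction of the 5 members above, but with lane as a covariate for neither (1.32 and 1.64, adjusted p = 0.104 and 0.0692).

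Genes that respond to HIF outside the list included Nos2, the inducible nitric oxide synthase, and Tfrc, the transferrin receptor. Nos2 fell by 2.33 ± 0.41 and Tfrc by 1.01 ± 0.24 on the log2 scale in AB1 IPL tumors (adjusted p = 0.000628 and 0.00507), and neither passed in AE17. Neither AB1 call held with lane as a covariate (Nos2 -1.44, adjusted p = 0.177, and Tfrc -1.11, adjusted p = 0.117) or with marker scores (-1.73 and -0.88, adjusted p = 0.0954 and 0.174). Stc2, a secreted glycoprotein induced by stress, was lower in IPL tumors of both models, with 3.76, 6.44 and 8.7 CPM against 8.87, 10.5 and 16.5 CPM in AB1 (-0.87 ± 0.16, adjusted p = 0.000931) and 0.342, 1.11 and 1.86 CPM against 1.56, 4.90 and 10.1 CPM in AE17 (-2.15 ± 0.40, adjusted p = 0.00933). The fall was larger in AE17 (difference -1.30 ± 0.42, adjusted p = 0.0257), although this call was lost without AE17 SC replicate 8 (adjusted p = 0.0525) and with lane as a covariate (-1.54, adjusted p = 0.225). With lane the Stc2 fold changes were -0.59 in AB1 and -2.12 in AE17 and passed in neither (adjusted p = 0.217 and 0.175), and with marker scores they were -0.60 and -2.18 (adjusted p = 0.135 and 0.191). Bpgm, which makes 2,3-bisphosphoglycerate in red cells, went opposite ways, with 0.57 ± 0.15 in AB1 (adjusted p = 0.00861) and -0.58 ± 0.10 in AE17 (adjusted p = 0.00816), and its difference of the site effects was -1.17. Both calls within a model were lost with lane (adjusted p = 0.195 in AB1 and 0.159 in AE17) and with marker scores as covariates (adjusted p = 0.257 and 0.181), while the difference passed with lane (-1.22, adjusted p = 0.0379) and with marker scores (-1.15, adjusted p = 0.00296). Erythroid markers were higher in AB1 IPL tumors, and their part in the Bpgm result was not tested. Tigar, a phosphatase that lowers fructose-2,6-bisphosphate, fell by 0.33 ± 0.09 in AE17 IPL tumors (adjusted p = 0.0434), a call lost in 12 of 16 fits that left out 1 mouse (all but IPL replicates 1 and 5 and SC replicates 1 and 3, adjusted p up to 0.0734). Pdha1, a pyruvate dehydrogenase subunit, passed for the difference of the site effects (-0.31 ± 0.10) but in neither site comparison. With lane as a covariate neither passed (adjusted p = 0.262 for Tigar in AE17 and 0.244 for the difference of Pdha1).

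The spread between mice of a group was wider for the members than for genes at large. The median SD of log2 CPM over the 31 members was 0.41, 0.19, 0.30 and 0.35 in IPL and SC tumors of AB1 and IPL and SC tumors of AE17, against 0.31, 0.17, 0.20 and 0.24 over all genes tested. Car9, the membrane carbonic anhydrase that acidifies the space around hypoxic cells, had the widest spread in AE17, with an SD of 1.49 in IPL and 1.38 in SC tumors. It stood at 55.1, 53.6 and 35.4 CPM in AE17 IPL replicates 6, 2 and 3 and between 4.03 and 18.1 CPM in the other 5. In AE17 SC tumors replicates 1 and 6 had 46.1 and 44.5 CPM and the other 6 between 4.48 and 8.79 CPM. AB1 mice lay between 3.55 and 12.3 CPM at both sites.

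Several other HIF target genes, but not all, were high in the same AE17 mice. SC replicates 1 and 6 held the 2 highest values of Bnip3 (91.0 and 119 CPM, the other 6 mice between 27.9 and 53.9 CPM) and of Adm, which encodes adrenomedullin (3.40 and 4.75 CPM against 0.825 to 1.94 CPM). They also held the 2 highest of P4ha2 (91.6 and 108 CPM against 25.5 to 52.1 CPM) and Vldlr (28.1 and 36.9 CPM against 8.96 to 17.3 CPM). Over the 31 members, AE17 SC replicate 6 was among the 2 highest mice of its group for 26 and replicate 1 for 21. In AE17 IPL tumors replicates 6, 3 and 2 were among the 2 highest for 23, 16 and 14 members. Those 3 mice had 91.5, 76.0 and 94.4 CPM of Bnip3 (replicates 2, 3 and 6) against 25 to 47.9 CPM in the other 5. IPL replicate 3 nevertheless lay below its group mean for Adm (-0.05 on the log2 scale), P4ha1 (-0.08) and Car12 (-0.29). SC replicate 1 was the lowest of its group for Car12 (49.4 CPM) and lay below SC replicates 2, 6 and 8 for Kdm3a (69.8 CPM). AE17 SC replicates 1 and 6 also held the 2 highest summed levels of fibroblast markers (20677 and 24368 CPM against 14530 to 19135 CPM) and of erythroid markers (91.4 and 164.5 CPM against 21.8 to 83.8 CPM). Replicate 6 was also the highest of its group for skeletal muscle (1398 CPM against 45.4 to 1309 CPM), adipocyte (239 CPM against 41.3 to 163 CPM) and keratinocyte markers (22.9 CPM against 2.24 to 12.8 CPM), and replicate 1 for T and NK cell markers (119 CPM against 14.7 to 108 CPM). In AE17 IPL replicates 2, 3 and 6 fibroblast markers lay at 15450, 12910 and 16612 CPM, against 12916 to 23585 CPM in the other 5. The part of these markers in the levels was not tested.

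**Figure D4:**
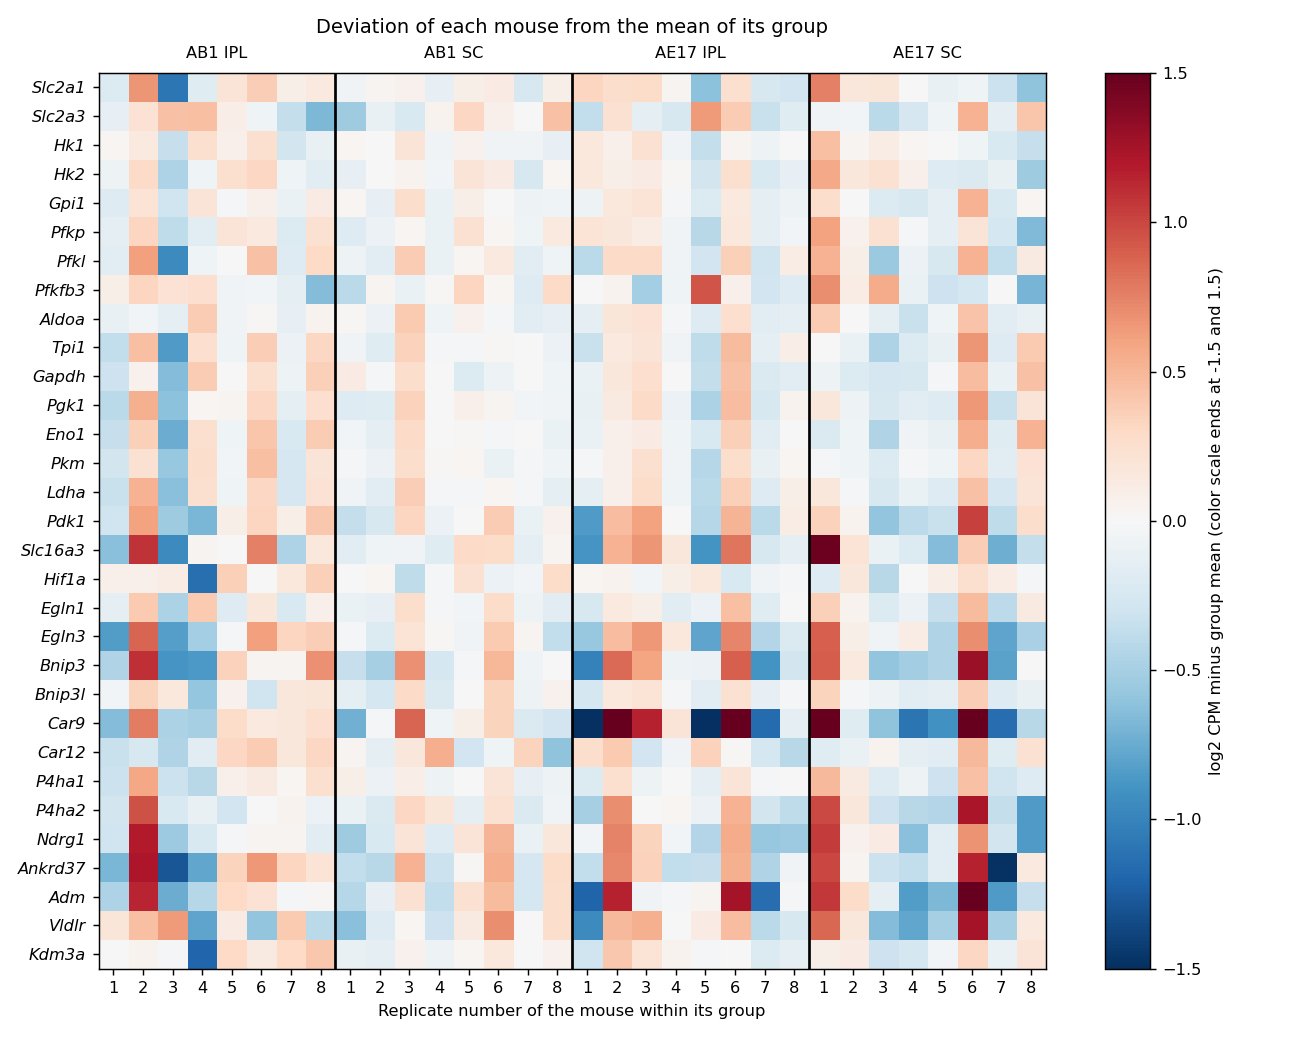
Log2 CPM of each member in each mouse minus the mean of its group, as a color scale from -1.5 (blue) to 1.5 (red), with groups side by side and mice in the order of their replicate numbers. AE17 SC replicates 1 and 6, AE17 IPL replicates 2, 3 and 6 and AB1 IPL replicate 2 are red over most hypoxia response genes, and AB1 IPL replicate 3 is blue over most rows.

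In AB1 IPL tumors replicate 2 was the highest of its group for 20 members and replicate 3 the lowest for 20. Ndrg1, a stress-response gene induced by hypoxia, stood at 275 CPM in replicate 2 and between 82.6 and 124 CPM in the other 7. Slc2a1 ran from 30.6 CPM in replicate 3 to 103 CPM in replicate 2. Replicate 3 also held the highest summed level of neutrophil markers (556 CPM, replicate 4 at 357 CPM and the other 6 between 17.7 and 154 CPM) and, after replicate 4 (2607 CPM), the next highest of erythroid markers (2419 CPM, the other 6 between 36.9 and 805 CPM). Muscle markers were highest in replicate 3 (4819 CPM) and lowest in replicate 2 (116 CPM), while B and plasma cell markers were highest in replicate 2 (480.5 CPM against 16.5 to 91.0 CPM). Replicate 2 also held the highest summed levels of fibroblast (34481 CPM against 13017 to 25231 CPM), macrophage (3175 CPM against 1583 to 2666 CPM) and mesothelial markers (283 CPM against 76.2 to 122 CPM). Its markers of dividing cells, at 1072 CPM, were the lowest but for replicate 4 (942 CPM, the other 6 between 1692 and 2325 CPM). The part of these markers in the levels was not tested. Without replicates 2 and 4, which stood apart from their group, 13 members passed in AB1 (chosen after seeing the data), among them all 9 named above, with Gapdh, Pgk1, Pdk1 and Ndrg1 added as lower in IPL tumors, and 25.4% of all genes passed in the same fit. In AB1 SC tumors, where all members had an SD under 0.47, replicate 3 was the highest mouse for 13 members and replicate 6 for 11.

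Between the models most members differed at either site, as most genes did. At the subcutaneous site 20 of 31 members passed, 10 higher and 10 lower in AB1, against 58.3% of all genes (28.6% higher and 29.7% lower). At the pleural site 22 passed, 7 higher and 15 lower in AB1, against 63.4% of all genes (31.6% higher and 31.8% lower). With lane as a covariate 9 and 12 members passed, against 33.6% and 31.9% of all genes, and all of these were among the 20 and 22. No lane held both models at 1 site, so that no value within a lane can be given.

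Higher in AE17 at both sites, with or without lane as a covariate, were Slc2a1 (log2 fold change of AB1 over AE17 -1.09 ± 0.18 in SC and -2.10 ± 0.18 in IPL tumors) and Car12 (-2.14 ± 0.15 and -1.68 ± 0.15). Car12, a second membrane carbonic anhydrase, lay at 34.3 to 78.6 CPM in all AE17 mice and at 8.31 to 19 CPM in all AB1 mice. Log2 fold changes in SC and IPL tumors were -1.33 ± 0.30 and -2.55 ± 0.31 for Slc16a3, -1.21 ± 0.24 and -0.76 ± 0.24 for P4ha2, -1.37 ± 0.53 and -1.71 ± 0.53 for Car9 and -0.40 ± 0.13 and -0.85 ± 0.13 for Hif1a. The Car9 call in SC tumors rested on the 2 AE17 mice with high values and was lost without AE17 SC replicate 1 or 6 or AB1 SC replicate 1 (adjusted p up to 0.128, log2 fold change -1.54 to -0.92 over 32 fits). It was also lost with limma-voom, at -0.36 (adjusted p = 0.531), and with no filter on low counts (adjusted p = 0.0569). Pkm and Pdk1 were also higher in AE17 at both sites (-0.42 and -0.49 for Pkm, -0.66 and -0.85 for Pdk1), the SC call of Pdk1 being lost without AE17 SC replicate 6 (adjusted p = 0.0502).

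Higher in AB1 at both sites, also with lane as a covariate, were Aldoa (0.66 ± 0.10 and 0.65 ± 0.10 in SC and IPL tumors), Tpi1 (0.45 ± 0.15 and 0.54 ± 0.15), Egln1 (0.94 ± 0.12 and 1.04 ± 0.12), Ndrg1 (1.47 ± 0.25 and 0.91 ± 0.25) and Vldlr (1.48 ± 0.27 and 1.01 ± 0.27). Egln1 separated the models fully, with 104 to 189 CPM in all AB1 mice and 55.4 to 101 CPM in all AE17 mice. Aldoa lay at 1081 to 1753 CPM in AB1 and at 599 to 1018 CPM in AE17 mice. Adm was higher in AB1 by 1.78 ± 0.37 and 1.29 ± 0.36 and Ankrd37, a small ankyrin protein induced by HIF, by 0.80 ± 0.32 and 0.75 ± 0.32. The Ankrd37 calls (adjusted p = 0.0321 and 0.0422) were lost in 8 of 32 fits in SC tumors (without AB1 SC replicates 3, 6 or 8 or AE17 SC replicates 2, 3, 4, 5 or 7) and in 10 of 32 in IPL tumors (AB1 IPL 2, 5, 6, 7 or 8 or AE17 IPL 1, 4, 5, 7 or 8).

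**Figure D5:**
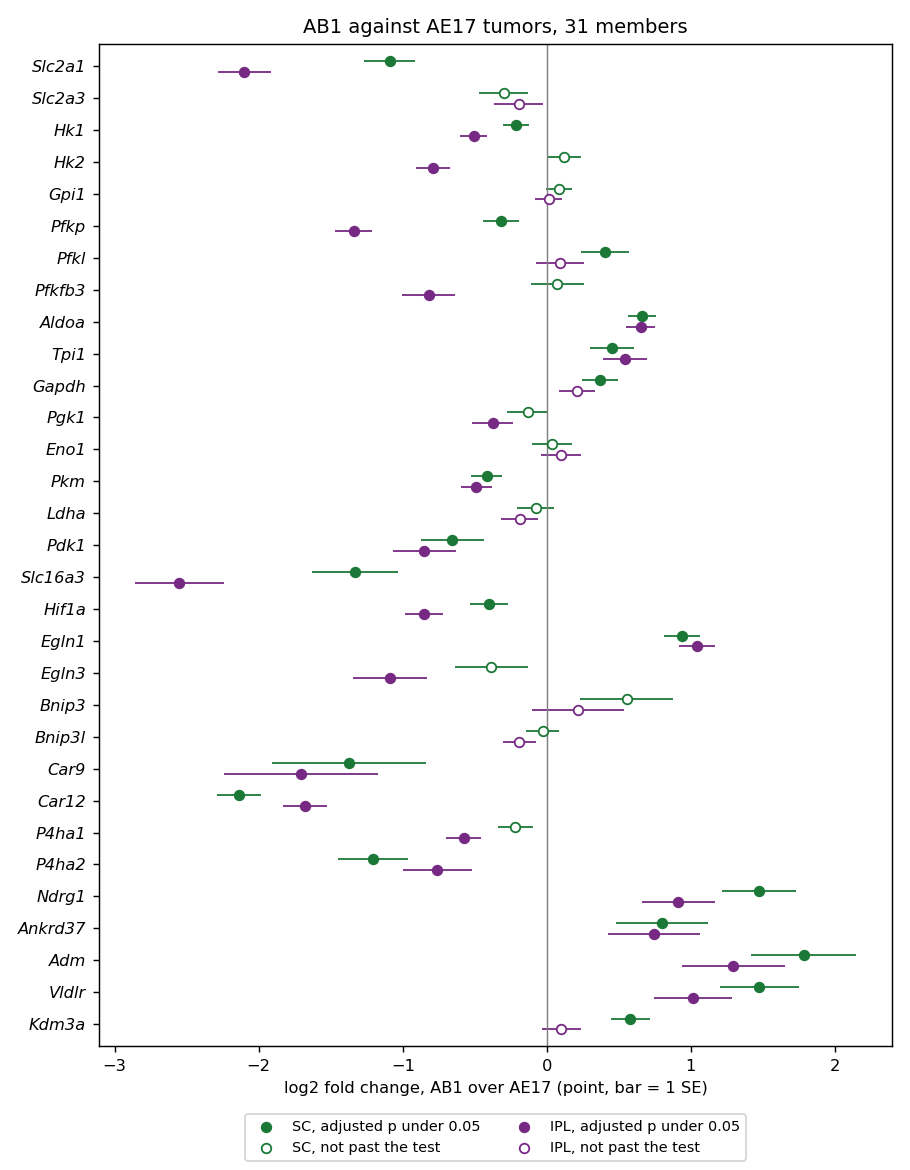
Log2 fold change of AB1 over AE17 tumors for each of the 31 members in SC (green) and IPL (purple) tumors, with 1 SE, filled where the adjusted p was under 0.05. At both sites Slc2a1, Slc16a3, Car9 and Car12 lie at -1.09 or below and Adm, Ndrg1, Vldlr and Egln1 at 0.91 or above.

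In IPL but not SC tumors, Hk2 (-0.79 ± 0.12), Pfkfb3 (-0.82 ± 0.18), Egln3 (-1.09 ± 0.26), P4ha1 (-0.58 ± 0.12) and Pgk1 (-0.38 ± 0.14) passed as higher in AE17. Their log2 fold changes in SC tumors were 0.12, 0.07, -0.39, -0.22 and -0.13. The change between sites passed its own test for Hk2 and Pfkfb3, as given above, and did not for Egln3, P4ha1 and Pgk1 (adjusted p = 0.174, 0.143 and 0.436). The Pgk1 call was lost without AB1 IPL replicate 1, 3 or 7 or AE17 IPL replicate 6 (adjusted p up to 0.0866). In SC but not IPL tumors, Pfkl (0.40 ± 0.17), Gapdh (0.37 ± 0.13) and Kdm3a (0.58 ± 0.14) passed as higher in AB1, with 0.09, 0.21 and 0.10 in IPL tumors. The change between sites did not pass for any of these 3 (adjusted p = 0.384, 0.587 and 0.0751). The Pfkl call was lost without AB1 SC replicate 3, 5 or 6 or AE17 SC replicate 2, 3, 4, 5 or 7 (adjusted p up to 0.0892).

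Hk1 and Pfkp were higher in AE17 at both sites, with log2 fold changes in SC and IPL tumors of -0.21 ± 0.09 and -0.51 ± 0.09 for Hk1 and -0.32 ± 0.13 and -1.34 ± 0.13 for Pfkp. In SC tumors the Hk1 call (adjusted p = 0.0494) was lost in 21 of 32 fits that left out 1 mouse (all but AB1 IPL replicates 3, 4 and 6, AB1 SC 3 and 5, AE17 IPL 1, 3 and 5 and AE17 SC 6, 7 and 8, adjusted p up to 0.169), and that of Pfkp (adjusted p = 0.0291) without AB1 SC replicates 1 or 4 or AE17 SC replicates 1, 3 or 6. Slc2a3, Gpi1, Eno1, Ldha, Bnip3 and Bnip3l did not pass at either site, with log2 fold changes of AB1 over AE17 from -0.30 to 0.55. Ldha stood at medians of 938, 975, 1008 and 988 CPM in IPL and SC tumors of AB1 and IPL and SC tumors of AE17.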

How the data were processed

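RNA from 32 whole tumors was sequenced as 50 bp single-end reads. The authors deposited raw counts per gene, which they made by demultiplexing with bcl2fastq 1.8.4, mapping with HISAT2 2.0.4 and counting with SummerizeOverlaps, per the labels and the study's methods. The strand setting of the counting is not given in the sources used here. Sample titles gave groups and replicate numbers, and column names gave the sequencing lane. Every sample column was mapped.

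Genes were tested in R 4.3.3 with edgeR 4.0.16 (filterByExpr, TMM factors, robust quasi-likelihood fit, two-sided F test) and adjusted by Benjamini-Hochberg over all genes tested, with 0.05 as the threshold. Site was tested within each model, and the difference of the site effects and the models were tested in 1 fit of all 32 mice. The mice of a group are separate animals. The study's own tool, DESeq2 (1.42.0), and limma 3.58.1 (voom) were alternatives. CPM uses TMM factors over all 32 libraries, and a prior count of 2 enters log2 CPM. CPM per kb divides by the union of exons in GENCODE M21. A count of 3, taken as the smallest detectable number, is 0.145 to 0.194 CPM. Scripts were tested on simulated data. No pair among 112 pairs of mice within groups was a copy (chi-square per degree of freedom 5.92 to 148). All members with a row were reported. Other pathway genes were counted whole and named where past the test in both site comparisons or in the difference of the site effects, or among the 3 largest changes of a site comparison. Members and lists were chosen with earlier results of these data known. Alternatives were other scalings, filters, tools and thresholds, the replicate block, lane and marker score covariates, 1 lane alone, all mice in 1 fit and leaving out each mouse.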

Additional observations from a re-analysis of the deposited data

Results flagged for a closer look

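A gap between 1 mouse and the other 7 of its group, past Dixon's critical value, was found for 17 of 124 combinations of member and group (13.7%). That critical value is made for normally distributed values, and CPM was used here without a log scale, so that no rate by chance is given. The share over all genes was not determined, so that this count says nothing particular to the members. Members share mice, so that these are not separate events. AB1 SC replicate 3 stood above its group for Aldoa (1586 CPM, next mouse 1270), Tpi1 (1318, next 1056), Pgk1 (1051, next 869), Eno1 (1712, next 1419), Pkm (2304, next 1955) and Ldha (1275, next 1011 CPM). AB1 IPL replicate 2 stood above its group for P4ha2 (66.1 CPM, next 35.1), Ndrg1 (275, next 124) and Adm (13.3, next 7.34 CPM). AB1 IPL replicate 4 stood below for Hif1a (71 CPM, next 155) and Kdm3a (31.1, next 70.2 CPM) and above for Aldoa (1753 CPM, next 1399). In AE17 SC tumors, replicate 1 stood above for Slc2a1 (345 CPM, next 231) and Slc16a3 (260.1 CPM, next 121), and replicate 6 for Pgk1 (1380 CPM, next 1006) and Pdk1 (171 CPM, next 106.5). AE17 IPL replicate 5 stood above for Pfkfb3 (124 CPM, next 68.0 CPM).

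The effect of site differed between the models by its own test for Slc2a1 (1.01), Hk2 (0.91), Pfkp (1.02), Pfkfb3 (0.89) and Slc16a3 (1.22), as log2 site effect in AE17 minus that in AB1. With lane as a covariate none of the 5 passed.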

How the results depend on the processing

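Counts of members past the test depended on the tool and on covariates. In AB1 the 9 became 18 with limma-voom and sample quality weights (31.5% of all genes, against 23%), 0 within 1 lane (1.06% of all genes), 1 with lane (2.64%) and 1 with marker scores (4.02%). At an adjusted p under 0.01 they became 3, where 1903 of 14645 genes passed. They lay between 8 and 11 when 1 mouse was left out. In AE17 the 2 became 8 with limma-voom (27% of all genes, against 5.73%), 0 within 1 lane, with lane, with marker scores and at an adjusted p under 0.01, and 1 with no filter on low counts, where Hk2 was lost. Over all genes, 14 of 15375 passed within 1 lane, 1 of 14668 with lane and 1 of 14668 with marker scores. At 0.01 it was 75 of 14668, and with no filter 550 of 28453. Leaving out 1 mouse gave 0 to 6, with 0 without IPL replicates 1, 3, 4, 7 or 8 or SC replicates 5 or 6, 1 without IPL replicates 2 or 6 or SC replicates 2 or 7, and 6 without SC replicate 1, while calls over all genes ran from 316 to 2066. The difference of the site effects went from 5 to 14 with limma-voom (29.4% of all genes, against 20.5%), 0 with lane (0.746% of all genes), 3 with marker scores (5.41%) and 3 at 0.01 (1513 of 15681 genes). It lay between 4 and 6 when 1 mouse was left out. AB1 against AE17 went from 20 to 9 with lane (33.6% of all genes) and 12 at 0.01 (7534 of 15681 genes) in SC tumors, and from 22 to 12 with lane (31.9% of all genes) in IPL tumors. When 1 mouse was left out these lay between 16 and 20 in SC and between 20 and 23 in IPL tumors. The other settings stayed within 1.5 times the main count, although some calls were lost: P4ha2 and Pfkfb3 in AB1 with all 32 mice in 1 fit, and with no filter on low counts Kdm3a in AB1, the difference of Slc16a3, AB1 against AE17 for Hk1, Pfkl and Car9 in SC and for Pgk1 and Ankrd37 in IPL tumors. In SC tumors Hk1 was also lost with DESeq2, Hk1 and Pfkp with total counts in place of TMM, and Car9 with limma-voom, which in IPL tumors lost Ankrd37, as did leaving out AB1 IPL replicates 2 and 4. Marker scores as covariates lost Pfkl in SC and Tpi1 and Ankrd37 in IPL tumors. No member past the test in either fit changed direction in any of 5611 values under alternatives, while 162 values past the test in neither fit changed sign. Within 1 lane and with lane as a covariate alike, the site effects rest on 2 AB1 SC or 3 AE17 IPL mice. Apart from this and the stricter threshold, the cause of these changes was not tested.

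The replicate numbers were not taken to pair the mice, since not every same-numbered pair correlated above 0.1 in any comparison (0 of 8 pairs did in AB1, 5 of 8 in AE17, and between the models 2 in SC and 1 in IPL tumors): same-numbered mice of the 2 sites deviated together with a mean r of -0.14 in AB1 and 0.09 in AE17, and of the models with -0.13 in SC and -0.05 in IPL tumors. A replicate block gave calls for 7, 3, 5, 17 and 22 members in AB1, AE17, the difference of the site effects, and AB1 against AE17 in SC and IPL tumors, and lost Slc2a3 and Pfkfb3 in AB1 and Hk1, Pfkp and Car9 in SC tumors. Over all genes the block gave 2263 calls in AB1 against 3374 in the main fit, 661 in AE17 against 840 and 2823 for the difference against 3212. For AB1 against AE17 it gave 8943 against 9138 in SC and 9706 against 9940 in IPL tumors. Lane as a covariate gave 386 in AB1. Of the 8 numbers, 0 in AB1 and 2 in AE17 had mice that correlated best with their own number. The lowest count of a member in a library was 14, and counting error covers only part of the spread between mice.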
